A study of Capra hircus with 2 samples.

Results

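miR-26 and miR-101 are 2 microRNA (miRNA) families known for repressing EZH2. They were read here in testicular cells of Saanen dairy goats. Rows of both deposited tables were taken where the miRNA name, without species prefix, copy number and arm, was miR-26a, miR-26b, miR-26c, miR-101, miR-101a or miR-101b. This gave 8 names with an arm (5p or 3p, the side of the hairpin a read comes from) of 1808 in all, from 11 of 2599 entries in the CD49f-positive table and 15 of 2338 in the other. miR-26c was listed in neither. The names were selected on their abundance and ratios in these same tables, so those values are a description and no test is attached to them.

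The cells came from 3 testes of 3 goats aged 5 months and were freed with digestive enzymes. After a night of plating, meant to leave Sertoli and myoid cells behind on the dish, unattached cells went through a magnetic sort for CD49f (integrin alpha-6), which is carried by spermatogonial stem cells among others. The CD49f-positive fraction (below, the positive library) and the CD49f-negative fraction (the negative library) have 1 library each; both passed through the same digestion, plating and sort, and whether the goats were pooled is not stated. The design text mentions sequencing in triplicate; the data analysed here are 1 table per fraction. With 1 library per group no difference has a replicate check, and all intervals given here reflect counting alone: amplified reads without molecular tags are not independent molecules. The tables hold 8196507 and 3064462 reads under miRNA names, so the positive library is 2.67 times deeper.

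A miRNA guides a repressor complex to messenger RNAs that pair with its seed, bases 2 to 8 from its 5′ end. EZH2 is the catalytic subunit of Polycomb repressive complex 2, which methylates histone H3 and keeps genes silent; it is abundant in dividing and undifferentiated cells. miR-26a and miR-101 each pair with the EZH2 messenger RNA, through unrelated seeds, and both are often low in tumours with high EZH2. Neither EZH2 messenger RNA nor protein was measured in these libraries.

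The listed sequences show why the set falls into 2 seed families. They are the sequences with the best match score on each arm, the same in both libraries, copied from the deposited tables with T for U and the seed in capitals:
miR-26a-5p: tTCAAGTAatccaggataggct
miR-26b-5p: tTCAAGTAattcaggataggtt
miR-101-3p: tACAGTACtgtgataactga
miR-26a-5p and miR-26b-5p have the same seed and agree at 20 of 22 bases. Counted from 1 at the 5′ end, with the miR-26a-5p base first, they differ at C11T and C21T. Both lie outside the seed. The miR-101-3p seed is another sequence, and its listed sequence has 20 bases, 1 fewer at the 3′ end than the 21 bases of the known cattle sequence it was matched to. All 3 begin with T.

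The precursors show which reads can be placed. Each is the hairpin the authors' tables give on the goat genome, on the strand it is read from, with the listed arms in capitals:
mir-26a-1: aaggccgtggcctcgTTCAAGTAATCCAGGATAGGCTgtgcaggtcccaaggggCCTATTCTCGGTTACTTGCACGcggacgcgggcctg
mir-26a-2: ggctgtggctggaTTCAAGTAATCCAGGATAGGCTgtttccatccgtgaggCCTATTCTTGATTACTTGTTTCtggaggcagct
mir-26b: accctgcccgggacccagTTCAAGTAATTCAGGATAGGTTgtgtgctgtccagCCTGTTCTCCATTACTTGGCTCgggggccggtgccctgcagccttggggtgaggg
mir-101-1: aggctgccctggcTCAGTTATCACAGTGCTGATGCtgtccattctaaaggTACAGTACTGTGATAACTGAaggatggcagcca
mir-101-2: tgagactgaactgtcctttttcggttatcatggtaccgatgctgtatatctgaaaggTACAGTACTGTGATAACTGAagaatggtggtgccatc
The miR-26a-5p arm has the same 22 bases in mir-26a-1 and mir-26a-2, and the miR-101-3p arm the same 20 bases in mir-101-1 and mir-101-2. Reads that hold only these bases therefore cannot be assigned to a hairpin, while the loops and the opposite arms differ. In the coordinates of the deposited tables, whose genome build is not given in the sources used here, mir-26a-1 is at chr22:11255978-11256067, mir-26a-2 at chr5:54100766-54100849 and mir-26b at chr2:105785965-105786072, all on the plus strand. mir-101-1 is at chr3:76758295-76758377 on the plus strand and mir-101-2 at chr8:38479236-38479329 on the minus strand. In the RefSeq gene table of the goat assembly ARS1.2, MIR26A, on chromosome 22 like mir-26a-1, lies inside CTDSPL, and MIR26B lies inside CTDSP1. These are genes of related small phosphatases that act on RNA polymerase II. MIR101, on chromosome 3 like mir-101-1, lies inside no protein-coding gene there. The nearest such gene before it is JAK1, a cytokine receptor kinase. Genes around mir-26a-2 and mir-101-2 are not given here.

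miR-26a-5p was the most abundant of the set and held nearly the same share of both libraries. It had 136213.5 reads in the positive library, 1.66% of named miRNA reads (exact Clopper-Pearson 95% interval 1.65 to 1.67), and 51336 in the negative library, 1.68% (1.66 to 1.69). Among all names it ranked 6 and 7. The log2 ratio of the shares, CD49f-positive over CD49f-negative, was -0.012 (95% interval -0.026 to 0.0031), so the libraries differed by less than counting error. Its reads were divided almost evenly between its hairpins, with 68091 and 25660 at mir-26a-1 against 68122 and 25675 at mir-26a-2. The gaps of 31 and 15 reads are small because a read that fits both hairpins was split between them, and they do not show that both hairpins are equally active.

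miR-26b-5p, with the same seed, was far rarer. It had 4926 reads in the positive library, 0.0601% (0.0584 to 0.0618), and 1760 in the negative library, 0.0574% (0.0548 to 0.0602), which placed it at ranks 61 and 74. Its log2 ratio was 0.065 (-0.013 to 0.14), again within counting error. For every 100 reads of miR-26a-5p there were 3.62 of miR-26b-5p in the positive library and 3.43 in the negative library. The log2 ratio of these proportions was 0.077 (counting interval -0.0026 to 0.16), and this quantity does not depend on how the libraries are scaled. Most reads with this seed thus came from miR-26a, in both fractions.

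miR-101-3p, the other EZH2 repressor, held a slightly smaller share of the positive library. It had 67352 reads there, 0.822% (0.816 to 0.828), and 30044 in the negative library, 0.980% (0.969 to 0.991), at ranks 14 and 9. The log2 ratio was -0.25 (-0.27 to -0.24), a share 0.838 times that of the negative library. This lies beyond counting error but well inside 2-fold, and the spread between replicate libraries is unknown. In sorted bulk cells, fewer cells of a type and less of a miRNA per cell cannot be told apart. The hairpins again received like numbers, 33138 and 14822 reads at mir-101-1 against 34214 and 15222 at mir-101-2, with log2 ratios of -0.26 and -0.25. mir-101-2 held 50.8% and 50.7% of the arm's reads. Here too a read that fits both hairpins was split between them, so like shares and ratios follow largely from the split. Which reads make up the small excess at mir-101-2 was not examined.

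The balance between the families differed in the same direction whichever reads were counted. Per 100 reads of miR-26a-5p there were 49.4 of miR-101-3p in the positive library and 58.5 in the negative library, a log2 ratio of -0.24 (counting interval -0.27 to -0.22). Over reads with no mismatch these numbers were 40.7 and 49.9, with a log2 ratio of -0.29, and over the listed sequences alone 14.6 and 18.7, with -0.35 (-0.40 to -0.31). These proportions are taken within a library, so no scaling factor enters them. Against miR-101-3p, miR-26b-5p had 7.31 and 5.86 reads per 100, a log2 ratio of 0.32 (0.24 to 0.40). Both miR-26 arms were thus higher relative to miR-101-3p in the positive library. All names of the set together took 2.54% and 2.71% of the reads.

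**Figure D1:**
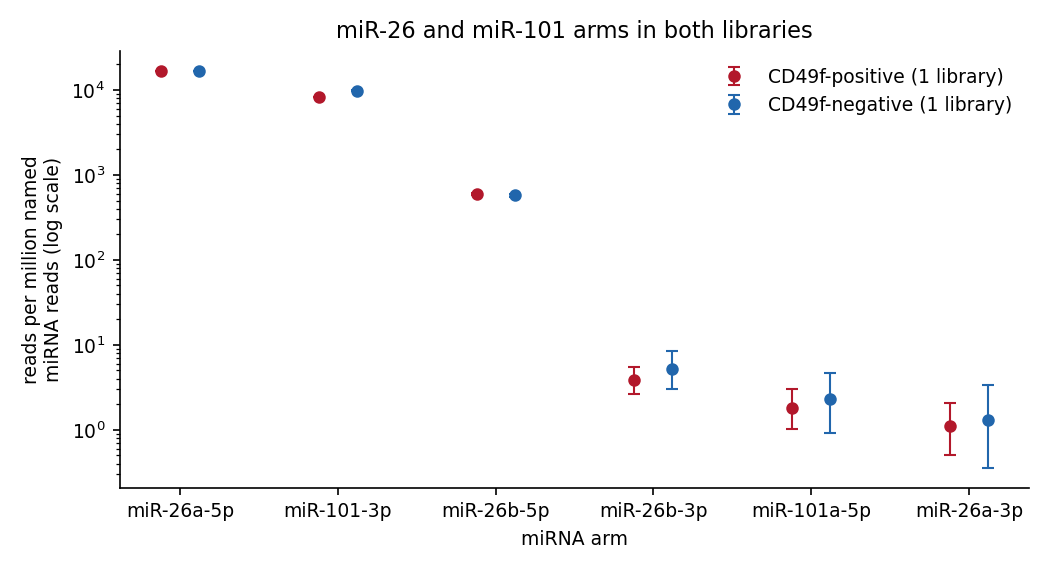
Level on a log axis, in RPM (reads per 1000000 named miRNA reads), for the 6 arms of miR-26 and miR-101 at known hairpins, with 1 library per group (red, CD49f-positive; blue, CD49f-negative) and exact 95% counting intervals as bars. miR-26a-5p stands at 16618 and 16752 RPM, miR-101-3p at 8217 and 9804, miR-26b-5p at 601 and 574, and the opposite arms under 10 with intervals that overlap between the libraries.

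The opposite arms, which are usually degraded after the hairpin is cut, were almost absent. miR-26b-3p had 32 and 16 reads, the most of these, with a log2 ratio of -0.44 (-1.33 to 0.55). It made up 0.645% of the reads of both miR-26b arms in the positive library (0.442 to 0.910) and 0.901% in the negative library (0.516 to 1.46). Its sequence sets it apart from the opposite arms of miR-26a given below it:
miR-26b-3p: cCTGTTCTccattacttggctc
miR-26a-3p had 9 and 4 reads, or 0.00661% (0.00302 to 0.0125) and 0.00779% (0.00212 to 0.0199) of the miR-26a reads. A single read of it carried the mir-26a-1 form, and the other 8 and 4 the mir-26a-2 form, which in this arm can be told apart:
miR-26a-3p of mir-26a-1: cCTATTCTcggttacttgcacg
miR-26a-3p of mir-26a-2: cCTATTCTtgattacttgtttc
The name miR-101a-5p, with 15 and 7 reads, is the rat name the authors' tables give to the opposite arm of mir-101-1, so it is no separate miRNA here. It was 0.0223% (0.0125 to 0.0367) and 0.0233% (0.00937 to 0.0480) of the reads of both arms, and no 5p arm was listed for mir-101-2. In each pair the intervals of the libraries overlap, so no difference in arm use was detectable at this depth. miR-26b kept its opposite arm far more often than miR-26a in both libraries, by intervals that do not meet.

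The remaining names held single reads. miR-101b-5p had 1 read in each library and miR-101b-3p 0 and 1, each with a mismatch and away from known hairpins. miR-26c had 0 reads, which allows up to 0.366 RPM in the positive library and 0.979 in the negative library. Of all reads of the set, 1.5 and 4.5 lay away from known goat hairpins.

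Against all arms with 100 or more summed reads, most of them rarer, miR-26a-5p, miR-26b-5p and miR-101-3p sat above the median. There were 298 such arms. In the positive library 24.8% of them were lower and 2.01% higher by 2-fold or more, with an interval free of equal shares. Of the 8 arms of the set, 3 reached 100 reads, and none of these met the rule in either direction; the other 5 had at most 50 reads. The median log2 ratio of all 298 arms was -0.43. miR-26b-5p stood above 78.9% of the arms, miR-26a-5p above 74.2% and miR-101-3p above 58.1%. This order is the same under any scaling of the libraries, because a scaling adds the same amount to every log2 ratio. The 298 arms include names with no reads at known hairpins. Over reads at known hairpins alone, the median of arms with at least 100 such reads was -0.30. miR-101-3p then stood at -0.26, close to that median, and miR-26a-5p and miR-26b-5p at -0.020 and 0.057. Abundance also matters to the rank of miR-101-3p. By all reads, 27 arms outside the set, mostly at known hairpins, had summed reads within 4-fold of it. More of these had a higher log2 ratio than miR-101-3p than a lower one, so among them it lay below the middle.

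**Figure D2:**
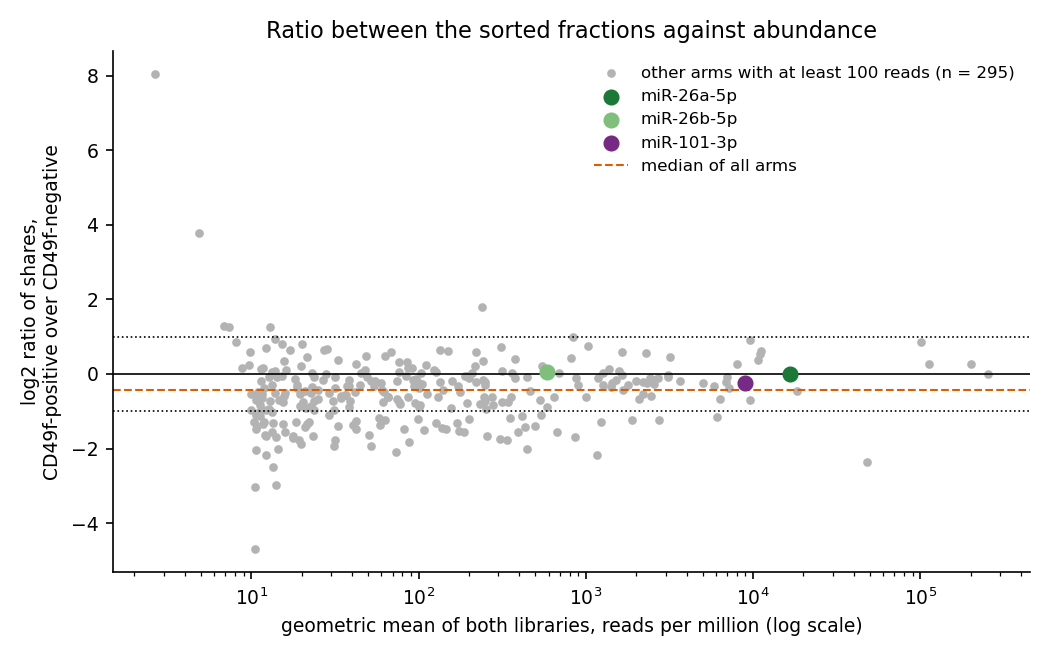
Log2 ratio of shares, CD49f-positive over CD49f-negative, against the geometric mean of both libraries in RPM (log axis) for 298 arms, with miR-26a-5p, miR-26b-5p and miR-101-3p in colour, the 2-fold limits dotted and the median of all arms, -0.43, dashed. The coloured points, at -0.012, 0.065 and -0.25, lie above the median line and between the 2-fold limits.

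The signs of the ratios do depend on the scaling. TMM, a scaling that trims the most extreme miRNAs, raised all log2 ratios by 0.44, to 0.43 for miR-26a-5p, 0.51 for miR-26b-5p and 0.19 for miR-101-3p, which puts miR-101-3p above 0. With TMM 13.4% of the arms were lower and 9.06% higher by 2-fold, and no arm of the set was among them. A total that omits the 10 most abundant miRNAs gave 0.29, 0.37 and 0.052. The sign of the miR-101-3p ratio is therefore not settled by these libraries, while its distance from miR-26a-5p, -0.24, was the same under each scaling.

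**Figure D3:**
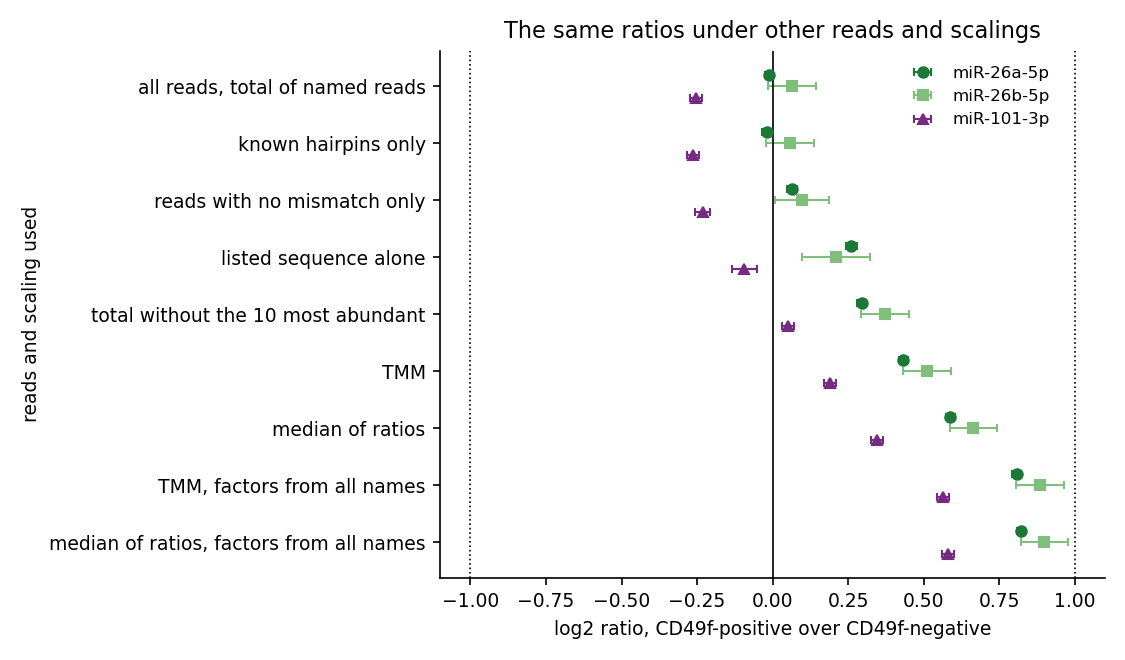
Log2 ratio of miR-26a-5p (circles), miR-26b-5p (squares) and miR-101-3p (triangles), CD49f-positive over CD49f-negative, with 95% counting intervals, for each choice of reads and scaling named on the vertical axis; dotted lines mark 2-fold. miR-101-3p lies left of both miR-26 arms under every choice shown, and no point passes 2-fold.

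The reads of the set matched their hairpins more exactly in the positive library. Of miR-26a-5p reads 87.8% (87.61 to 87.96) had no mismatch there and 79.3% (78.9 to 79.6) in the negative library. For miR-26b-5p the percentages were 82.9% (81.8 to 83.9) and 77.2% (75.1 to 79.1), and for miR-101-3p 72.2% (71.9 to 72.6) and 67.6% (67.1 to 68.1). The same direction held for 70 of 75 arms with at least 1000 reads in each library and mostly at known hairpins, whose median was 84.2% and 76.5%. miR-26a-5p had a gap of 8.52 percentage points, and 15 of the 75 arms had a larger one. The gap was 5.73 points for miR-26b-5p and 4.63 for miR-101-3p, with a larger one in 44 and 56 of the 75 arms.

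**Figure D4:**
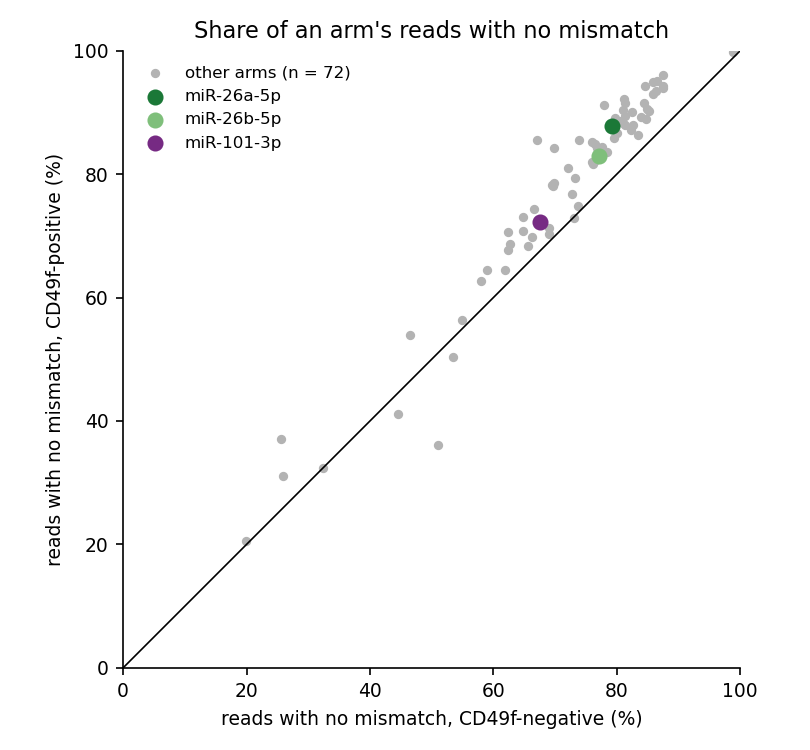
Percent of an arm's reads with no mismatch in the positive library (vertical) against the negative library (horizontal) for 75 arms with at least 1000 reads in each; the line marks equal percentages. miR-26a-5p (87.8% and 79.3%), miR-26b-5p (82.9% and 77.2%) and miR-101-3p (72.2% and 67.6%) are among the 70 arms above the line.

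How far 1 sequence stood for its miRNA differed within the set. The listed miR-26a-5p sequence had 106143 and 33110 copies, 77.9% and 64.5% of that arm's reads. The listed miR-26b-5p sequence had 2614 and 845 copies, 53.1% and 48.0%. The listed miR-101-3p sequence had 15507 and 6184 copies, only 23.0% (22.7 to 23.3) and 20.6% (20.1 to 21.0), so most miR-101-3p reads had other ends or mismatches. Counted by the listed sequence alone, log2 ratios were 0.26 for miR-26a-5p, 0.21 for miR-26b-5p and -0.093 for miR-101-3p. These are shares of all named reads, and the median of all arms also rose, from -0.43 to -0.13. Over reads with no mismatch, as shares of all such reads, the log2 ratios were 0.063 (0.047 to 0.079), 0.096 (0.0076 to 0.19) and -0.23 (-0.26 to -0.21). The median of all arms was then -0.32.

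Hairpins that give the same main arm differed in makeup. mir-26a-1 and mir-26b have a GC content of 61.1%, mir-26a-2 one of 48.8%, mir-101-1 one of 49.4% and mir-101-2 one of 42.6%. The folding free energies in the authors' tables run from -49.7 kcal per mol for mir-26b to -32 for mir-101-2. The opposite arm was listed in at least 1 library for every hairpin except mir-101-2.

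Full seeds of the set were rare elsewhere among the listed sequences. Bases 2 to 8 of miR-26 occurred otherwise only in entries named miR-26-5p, and those of miR-101-3p only in an entry named miR-101c-3p, all with mismatches. With bases 2 to 7 alone, entries of miR-144-3p and miR-199c-3p also matched miR-101-3p. The matching entries of miR-144-3p, a red blood cell miRNA, had 476 and 284 reads, 457 and 259 of them without a mismatch. The whole miR-144-3p arm, with 861 and 491 reads, stood at -0.61 (-0.77 to -0.45). The matching entries of miR-199c-3p had 67 and 53 reads, none without a mismatch. Both names were chosen after their values were seen.

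The arms whose ratios lay nearest were found among arms mostly at known hairpins with summed reads within 4-fold. The likeness rests on 2 libraries and is the difference of the log2 ratios. For miR-26a-5p, among 16 arms, these were miR-24-3p at -0.092, miR-99b-5p at -0.19 and miR-27b-3p at -0.22, none closer than 0.081. For miR-26b-5p, among 67 arms, they were miR-452-5p at 0.084, miR-103-3p at 0.085 and miR-30f-5p at 0.035. For miR-101-3p, among 27 arms, they were miR-30e-5p and miR-30d-5p, both at -0.25, and miR-16b-5p at -0.28.

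Other miRNAs known to repress EZH2 or its Polycomb partners went both ways. Of 15 such names, 9 had an arm with at least 100 reads, 5 had fewer and miR-506 was not listed. The name miR-203 was represented by miR-203-5p, with 18 and 10 reads. The arm miR-203a-3p, with 76 and 58 reads, none at known hairpins, was left out of these counts. It stood at -1.03 (-1.54 to -0.51), which meets the 2-fold rule for lower, or at -0.59 with TMM, which does not. Of the 9 counted, 1 was lower by the 2-fold rule and none higher, where 24.8% and 2.01% of all arms were. With TMM it was 1 and 1, where 13.4% and 9.06% of all arms were. With the read total, ratios were above 1 for 5 of the 9 and for 75 of all 298 arms. The 9 had a median log2 ratio of 0.058 against -0.43 for all arms. With TMM 6 of the 9 were above 1, with a median of 0.50 against 0.017 for all arms. How many of all arms were above 1 with TMM was not counted. The let-7 family, which also pairs with EZH2, made up most of the names above 1. let-7a-5p stood at 0.53 (0.51 to 0.55) from 108656 and 28062 reads. let-7b-5p, with 30671 and 8351 reads, stood at 0.46, let-7c-5p, with 7683 and 2148, at 0.42, and miR-98-5p, of the same seed family, with 2219 and 548, at 0.60, or 1.04 and past 2-fold with TMM. These 4 have fractional counts, since a read that fits several hairpins was split, and are not independent.

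With the read total, the EZH2 repressors outside let-7 lay at or below equal shares. miR-214-3p stood at 0.058 (-0.11 to 0.23) from 1067 and 383 reads, or 0.50 with TMM. miR-30d-5p, with 37954 and 16830 reads, stood at -0.25 beside miR-101-3p, or 0.20 with TMM, and miR-25-3p, of the miR-106b cluster, with 13442 and 8064 reads, at -0.68 (-0.72 to -0.64). Of the repressors of the Polycomb members BMI1 and SUZ12, miR-128-3p was at -0.83 with 624 and 416 reads. miR-200b-3p, an epithelial miRNA, was lower at -1.62 (-1.88 to -1.37) with 235 and 271 reads. miR-26a-5p alone had more reads than any of these in both libraries.

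Markers of other cells took unlike shares of the libraries, in the order positive and negative. miRNAs of meiotic and post-meiotic germ cells (miR-34b, miR-34c, miR-449a and miR-449b) summed to 2.25% and 11.4% of named reads. The endothelial miR-126 summed to 1.43% and 0.755%, and miR-202, listed here as a Sertoli cell marker, to 0.0320% and 0.0823%. Whether germ cells also held miR-202 was not tested. The smooth muscle and myoid miR-143 and miR-145 summed to 22.6% and 18.9%, nearly all of it miR-143 (22.1% and 18.5%). miR-145 took 0.402% and 0.479%, and its arms went opposite ways: miR-145-3p, with 22939 and 5808 reads, stood at 0.56 (0.52 to 0.60), and miR-145-5p, with 10050 and 8864, at -1.24 (-1.28 to -1.20). Red blood cell miRNAs (3 of 3 names listed) made up 0.296% and 0.372%, and white blood cell miRNAs (miR-142, miR-150, miR-155 and miR-223, 4 of 4) 0.0197% and 0.0248%. Both blood cell sums had a log2 ratio of -0.33. TMM adds 0.44, which turns both above 0, so their direction depends on the scaling. The white blood cell names also went both ways. miR-155-5p stood at 0.59 (0.35 to 0.85) from 687 and 170 reads, miR-142-5p at -0.79 (-0.98 to -0.60), miR-142-3p at -0.96 (-1.34 to -0.57) and miR-150-5p at -0.72 (-1.10 to -0.33), while miR-223 had 19 and 5 reads. The arms of miR-145, miR-142, miR-150 and miR-155 given here keep their signs with TMM, but miR-142-5p and miR-150-5p turn above 0 when the scaling factors come from all names. All reads of miR-142-5p, miR-142-3p and miR-486-5p lay away from known goat hairpins. The last of these gave 10227 and 4862 reads to the red blood cell sum. Every name in these lists had reads in both libraries. Their part in the level of miR-101-3p was not tested.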

How the data were processed

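Total RNA went into Illumina TruSeq small RNA libraries, per the labels' protocols, which were read on a GAIIx, per the series text. The deposited tables hold matches to mammalian miRBase hairpins, a goat genome and expressed sequences, per the file headers and the column description; which aligner, release and build the authors used is not given in the sources used here. Their values for an arm are expected counts in which the authors split a read between the hairpins it fits. The copies of each listed sequence are deposited as whole counts, hairpin GC content as a percent and folding free energy in kcal per mol.

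Reads were summed by name and arm; names without an arm received the arm with most reads over both libraries. Entries without a name (45707 and 18827 reads) stayed out. Ratios compare shares of named reads after adding 0.5 to both counts, with exact conditional 95% binomial intervals of rounded counts; intervals of within-library proportions come from the 4 counts by the delta method. A higher or lower miRNA had 100 or more summed reads, a 2-fold or larger ratio and an interval excluding 1. Zero counts have a floor of 3 reads. TMM factors (edgeR 4.0.16) and median-of-ratios factors (DESeq2 1.42.0, R 4.3.3) came from 592 names with at least 10 summed reads and supplied scaling only; this minimum was set after values with other minimums were seen, at the one that matched earlier processing of these data. Other work used Python 3.11.15 with SciPy 1.17.1, pandas 2.3.3, numpy 2.4.6 and, for figures, matplotlib 3.10.9. The ratio and its interval were tested only on simulated whole counts of independent reads, without the depth gap of these libraries. That test does not cover split or amplified reads.

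Named were all arms of the set, seed sharers, the 3 nearest ratios per main arm and at most 8 listed Polycomb repressors by abundance. miR-200b-3p and miR-203a-3p were added after their values were seen. The members and lists were chosen with earlier results of these data known.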

Additional observations from a re-analysis of the deposited data

Results flagged for a closer look

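Some reads carried names outside the set but close to it, in numbers beyond the 3 reads compatible with none. Entries named miR-26-5p, after opossum and platypus sequences, held 46.5 reads in the positive library and 11.5 in the negative library, none without a mismatch and none at a known goat hairpin, with a log2 ratio of 0.55 (95% interval -0.39 to 1.60). Entries named miR-101c-3p, after a mouse sequence, held 34 reads in the positive library and 54 in the negative library, of which 1 and 0 had no mismatch. Their log2 ratio was -2.08 (-2.75 to -1.44), against -0.25 for miR-101-3p itself. Adding these reads to miR-26a-5p and miR-101-3p left their log2 ratios at -0.011 and -0.26.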

How the results depend on the processing

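No paired analysis was possible because each group has 1 library, and for the same reason no replicate could be left out. In the order miR-26a-5p, miR-26b-5p and miR-101-3p, log2 ratios were 0.43, 0.51 and 0.19 under TMM, 0.59, 0.67 and 0.34 under median-of-ratios factors, 0.29, 0.37 and 0.052 for a total that omits the 10 most abundant miRNAs, and 0.26, 0.21 and -0.093 for the listed sequence alone. Reads with no mismatch gave 0.063 for miR-26a-5p and -0.23 for miR-101-3p; miR-26b-5p moved by less than its counting interval. Scaling factors from all names, chosen after seeing the data, gave 0.81, 0.89 and 0.57 by TMM and 0.82, 0.90 and 0.58 by median-of-ratios factors; from names with at least 100 reads, likewise chosen later, they gave 0.33, 0.41 and 0.085, and 0.42, 0.50 and 0.18. Known hairpins only, a prior of 5 reads and the reads under like names, the last also chosen after seeing the data, moved no ratio beyond counting error. The cause of these shifts was not tested.

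miRNAs higher by at least 2-fold numbered 6, and lower 74. Higher and lower counts were 27 and 40 under TMM, 34 and 28 under median-of-ratios factors, 49 and 15, and 50 and 15, with the factors from all names, 17 and 49, and 26 and 40, with those from 100 reads, 10 and 159 with a minimum of 10 reads, 1 and 26 with 1000 reads, 10 and 196 with no minimum, and 2 and 11 at 4-fold. Higher and lower counts were 16 and 52 for the total that omits the 10 most abundant, and 2 and 51 at known hairpins. Reads with no mismatch gave 4 and 52, and the listed sequence alone 8 and 43. All 16 comparisons of other values with an alternative moved by less than counting error, but they could hardly do otherwise. They concern arms with at most 50 summed reads and wide intervals, and no-mismatch percentages recomputed at known hairpins from nearly the same reads. Depth limits the opposite arms, none of which had over 50 reads summed.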
